A study of Arabidopsis thaliana with 9 samples.

Results

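MADS-box genes encode transcription factors that share a DNA-binding MADS domain. The 75 genes described here are the protein-coding MADS-box genes that remain when the 23 best-known floral organ, floral meristem and flowering-time members are set aside (the SEPALLATA, AGAMOUS, APETALA, PISTILLATA, FLC and MAF genes and their close partners). They were picked by name from a RefSeq gene table of 27432 protein-coding genes on the nuclear chromosomes. Whether each of them encodes a MADS domain was not checked, since no protein sequences were used. Loci of the family that this table does not name as such were not used here. Of the 75 genes, 23 belong to type II and 50 to type I, and AGL26 and AGL87 were given no type.

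FIE belongs to the core of Polycomb repressive complex 2 (PRC2), the enzyme that trimethylates lysine 27 of histone H3 and so keeps genes silent. FIE binding was profiled by ChIP-seq (sequencing of immunoprecipitated chromatin) in Arabidopsis thaliana plants of strain Ws at 30 hr of age, grown in long days with no treatment. There were 9 libraries, 3 in each of 3 groups. The double knockdown carried the transgenes pRNAi-BPC and pRNAi-ZnF and was profiled with anti-FIE, the wild type carried no transgene and was profiled with anti-FIE, and the third group was input chromatin of the wild type. BPC proteins are plant factors that bind GAGA motifs, and the labels do not spell out ZnF or name the promoter and the targeted genes of the transgenes. The data are 1 peak list for each anti-FIE group, with no values for single replicates, so no spread between plants can be given and none of the differences below has a test. None of the 9 libraries was input of the knockdown plants. The knockdown of BPC and ZnF genes was not measured by these data.

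Type II proteins carry a keratin-like K domain next to the MADS domain, and their genes are split into many exons. The MIKCc class holds the floral organ identity genes and many regulators of flowering, roots and seeds, whereas genes of the Mδ class (also called MIKC-star) act mostly in pollen. Type I genes have few introns, fall into the classes Mα, Mβ and Mγ, and are best known for roles in the female gametophyte and the endosperm. PHE1, a Mγ gene expressed from the paternal copy in the endosperm, is a textbook target of Polycomb repression in seeds.

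A gene was called bound when at least 1 bp of its body lay under a peak. Among the 75 genes, 4 were bound in the knockdown list (5.33%), against a background of 4.40% of all protein-coding genes. In the wild-type list 13 of the 75 genes were bound (17.3%), against a background of 9.93%. None of the 75 genes was bound in both lists, where the background of 0.751% of all protein-coding genes would give 0.56. No peak in either list was found at 58 genes (77.3%), against 86.4% of all protein-coding genes. The knockdown share thus lay close to its background, and the wild-type share above its own.

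The excess over the wild-type background lay mainly in the MIKCc class. Of the 16 MIKCc genes, 0 were bound in the knockdown and 9 in the wild type (56.2%), where the background share would give 1.59. Of the 7 Mδ genes, 0 were bound in either list. Of the 50 type I genes, 4 were bound in the knockdown and 4 in the wild type (8.00% in each list), where the background shares would give 2.20 and 4.97. By class, 0 of 18 Mα genes were bound in the knockdown and 2 in the wild type, where the background shares would give 0.79 and 1.79. Of the 19 Mβ genes, 1 was bound in the knockdown and 2 in the wild type, against 0.84 and 1.89. Of the 13 Mγ genes, 3 were bound in the knockdown and 0 in the wild type, against 0.57 and 1.29. These 3, PHE2 (AGL38), AGL34 and AGL90, have near copies, so their peaks are uncertain as to copy. Type II as a whole stood at 0 of 23 in the knockdown, where the background share would give 1.01, and at 9 of 23 in the wild type (39.1%). The floral and flowering MADS-box genes that were set aside, all of type II, were bound at 4 of 23 in the knockdown and at 19 of 23 in the wild type (82.6%).

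**Figure D1:**
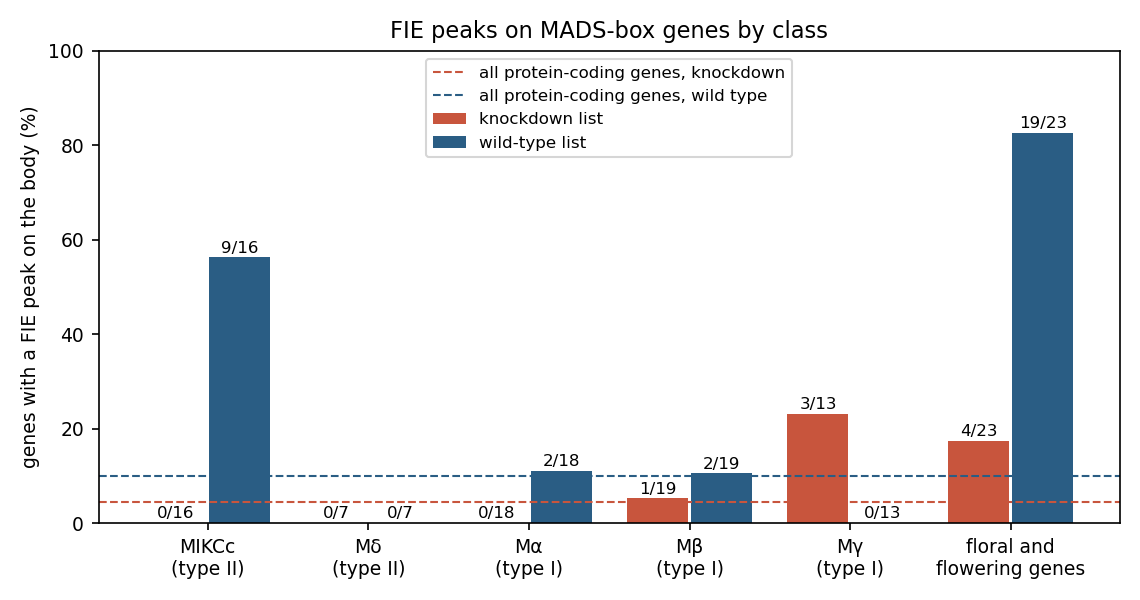
Share of genes with a FIE peak on the gene body (percent, vertical axis) in each MADS-box class, in the knockdown list and the wild-type list, with the numbers of bound and all genes above the bars. Dashed lines mark all protein-coding genes, at 4.40% in the knockdown and 9.93% in the wild type, and among the classes of the 75 genes the MIKCc bar of the wild type stands highest, at 9 of 16.

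Gene length differed between the types, and its part in the counts was not tested. The median length was 2751 bp for type II and 982.5 bp for type I. In the wild type the bound share of all protein-coding genes was 10.1% under 1500 bp, 9.84% from 1500 to under 3000 bp and 9.95% at 3000 bp or more. Within the length classes, 4 of 48 type I genes under 1500 bp, 5 of 9 MIKCc genes from 1500 to under 3000 bp and 4 of 7 MIKCc genes of 3000 bp or more were bound in the wild type. The median length was 2751 bp for the 7 Mδ genes and 2772 bp for the 16 MIKCc genes. In the knockdown the share of all protein-coding genes was 2.55% under 1500 bp, 3.85% from 1500 to under 3000 bp and 7.53% at 3000 bp or more. All 4 type I genes bound in the knockdown were under 1500 bp, a class in which 4 of 48 type I genes (8.33%) stood against that 2.55%. This contrast rests on 4 peaks of 97 to 131 bp. Those on PHE2, AGL34 and AGL90 are uncertain as to copy, since these genes have near copies.

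The SOC1 clade was bound throughout in the wild type. This clade groups the flowering promoter SOC1 with close relatives, and its 4 members among the 75 genes are AGL14, AGL42, AGL71 and AGL72. AGL71, which with AGL42 and AGL72 promotes flowering at shoot apical and axillary meristems, had no knockdown peak and 1 wild-type peak of 1765 bp with a fold enrichment at the summit of 6.93 (chromosome 5, 21087310 to 21089074). Fold enrichment, the pileup at the summit over the background, was deposited by the authors and is read here within its own list, since it depends on depth. AGL42 had no knockdown peak and a wild-type peak of 1307 bp with a fold of 5.91 (chromosome 5, 24964497 to 24965803). AGL72 had no knockdown peak and 2 wild-type peaks, of 802 bp with a fold of 5.41 (chromosome 5, 21083993 to 21084794) and of 92 bp with a fold of 3.21 (chromosome 5, 21082301 to 21082392). AGL14, also known as XAL2 and active in root development and flowering, had no knockdown peak and a wild-type peak of 791 bp with a fold of 4.63 (chromosome 4, 7142921 to 7143711). By fold, the strongest peaks of these 4 genes stood above 85.4% to 95.0% of the 6540 peaks of the wild-type list. The clade members SOC1 and AGL19, set aside by the choice of genes, had weaker wild-type peaks, with a highest fold of 3.65 at SOC1 and of 3.60 at AGL19. SOC1 had no knockdown peak, but AGL19 had 1, with a fold of 4.02, and so was bound in both lists.

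AGL71 and AGL72 lie side by side, 1034 bp apart with no gene between them. Each had its own wild-type peak at its higher-coordinate end, and the AGL72 peak ran 367 bp past that end into the gap. With the weaker peak inside AGL72, the pair held 3 wild-type peaks, and none of them touched both genes.

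The Bsister gene TT16 carried the strongest peak of all 75 genes. TT16 is needed for pigmentation of the inner seed coat. It had no knockdown peak and a wild-type peak of 2462 bp with a fold of 12.6 (chromosome 5, 7835571 to 7838032), which covered 79.8% of the gene and ranked 67 of 6540 by fold. Its clade partner GOA, which acts in fruit growth, had no peak in either list, and the nearest wild-type peak was 15522 bp away.

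Root regulators of the AGL17 and AGL12 clades were bound in part. ANR1 (AGL44), which links nitrate supply to lateral root growth, had no knockdown peak and a wild-type peak of 1150 bp with a fold of 5.54 (chromosome 2, 6018033 to 6019182). Its summit lay 83 bp outside the gene, and the local background there was 26.6, the highest at any peak of the 75 genes, against a lowest value of 16.9 in the list. AGL21, a further gene of lateral root growth, had no knockdown peak and 2 wild-type peaks of 202 and 227 bp with folds of 3.02 and 3.04 (chromosome 4, 17837965 to 17838166 and 17838603 to 17838829). AGL12 (XAL1), which acts in root development and flowering, had no knockdown peak and a wild-type peak of 187 bp with a fold of 3.20 (chromosome 1, 26954913 to 26955099). AGL16 and AGL17 of the same clade as ANR1 had no peak in either list, with the nearest wild-type peaks at 7665 bp from AGL16 and 36313 bp from AGL17.

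AGL15, which represses flowering and promotes somatic embryo formation, had the smallest overlap of the bound MIKCc genes. It had no knockdown peak, and its wild-type peak of 279 bp with a fold of 3.02 (chromosome 5, 4450872 to 4451150) shared 87 bp with the gene and had its summit 120 bp outside. Its partner AGL18 had no peak in either list, and the nearest wild-type peak was 40322 bp away. AGL6 and AGL13, which act in reproductive development, and AGL79 of the AP1/FUL clade also had no peak in either list. AGL6 lies 918 bp from SOC1, and the nearest wild-type peak, on SOC1, was 3195 bp from it.

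Among the 9 bound MIKCc genes the peaks fell into a strong and a weak set. TT16, AGL71, AGL42, ANR1, AGL72 and AGL14 had highest folds of 4.63 to 12.6, all above the list's median of 3.29. AGL12, AGL21 and AGL15 had highest folds of 3.02 to 3.20, below that median. The median of the highest folds was 5.41 for the 9 genes, against 3.36 for all 2725 protein-coding genes bound in the wild type and 6.72 for the 19 bound floral and flowering MADS-box genes. The summed length of the peaks that touched a gene, parts outside the gene included, had a median of 894 bp for the 9 genes. It was 388 bp for all bound genes and 1997 bp for the 19.

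**Figure D2:**
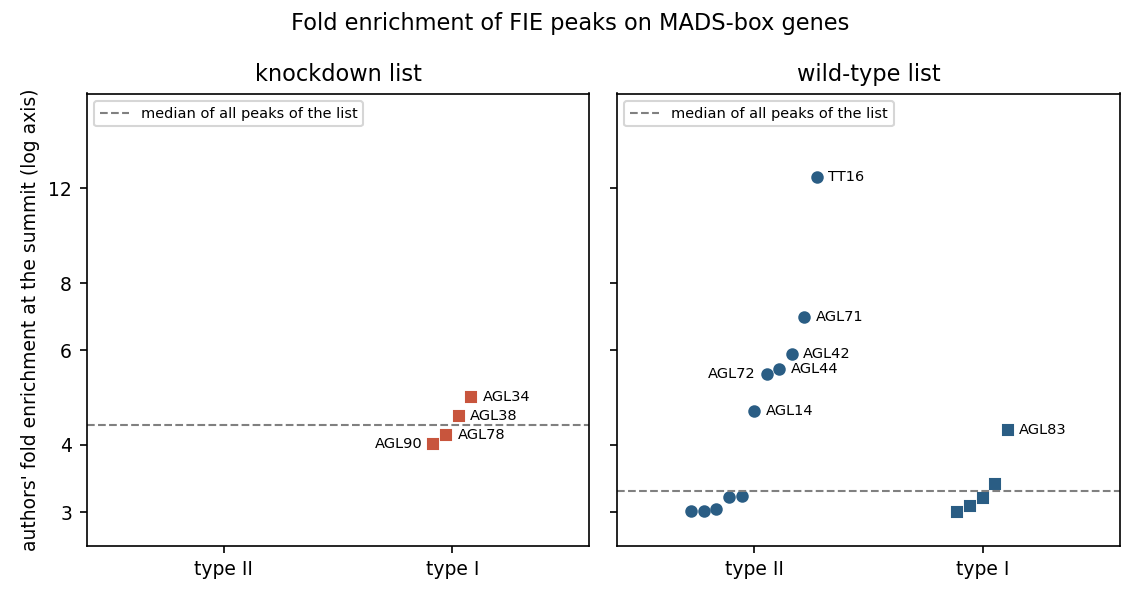
Fold enrichment at the summit (authors' values, log axis) of each peak on the 75 genes, in the knockdown list (left) and the wild-type list (right), split into type II (circles) and type I (squares). Dashed lines mark the median of all peaks of each list, 4.35 in the knockdown and 3.29 in the wild type, and 6 type II genes of the wild type stand above it at 4.63 to 12.6.

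The summits of the strongest wild-type peaks of these genes lay near a gene end. They were 52 to 577 bp from the nearest end of the gene, with a median of 158 bp, and 7 of the 9 were inside the gene. For all 1889 bound protein-coding genes of 1500 bp or more the median was 366 bp, and for the 19 bound floral and flowering MADS-box genes 334 bp. For the 4 bound type I genes it was 174.5 bp, against 216 bp for all 836 bound genes under 1500 bp. The gene table gives no strand, so the start and the end of transcription could not be told apart. None of the 16 wild-type peaks on the 75 genes, and none of the 4 knockdown peaks, touched another protein-coding gene. The share of such peaks in the whole lists is not given here, so these counts have no background.

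**Figure D3:**
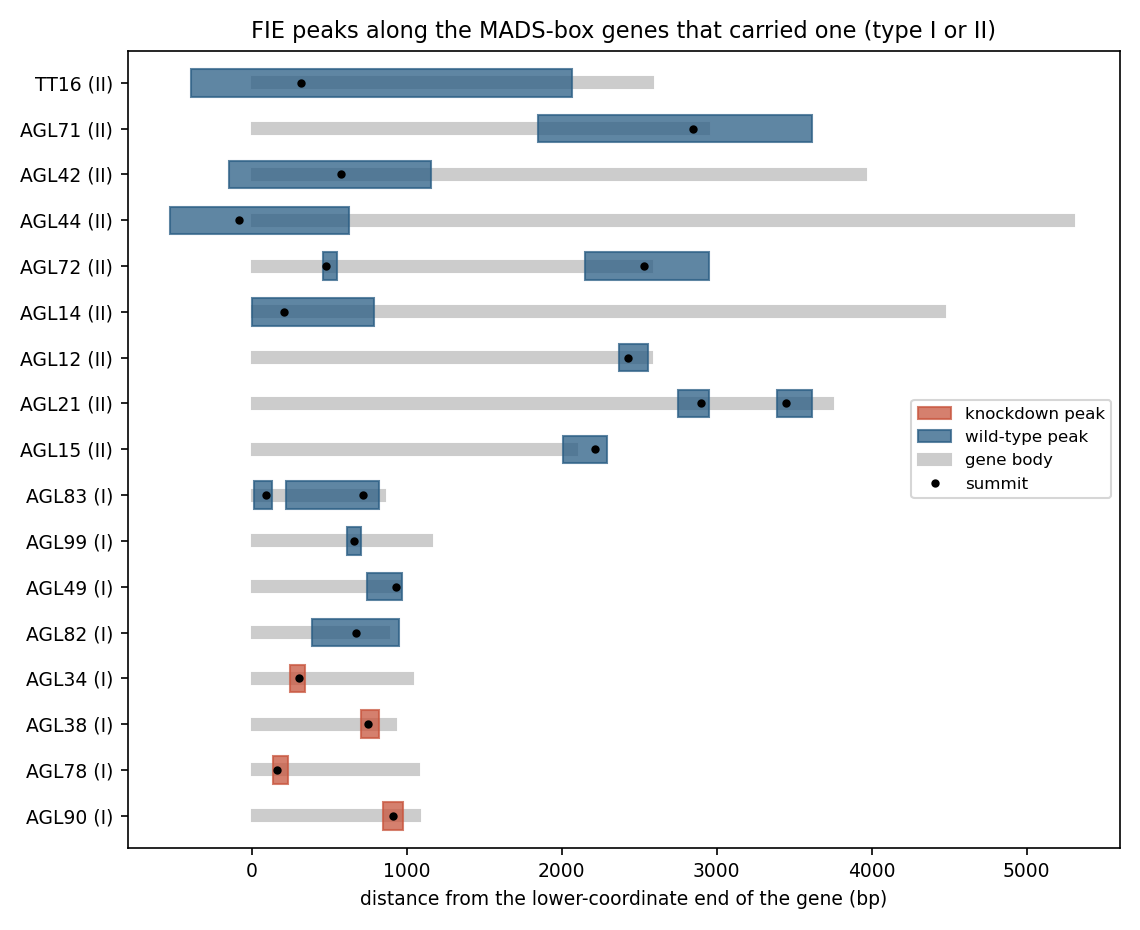
FIE peaks along the 17 genes that carried one, drawn to scale from the lower-coordinate end of each gene (horizontal axis, bp), with the gene body in grey, knockdown peaks in red, wild-type peaks in blue and summits as dots. Knockdown and wild-type peaks are on different genes, and the knockdown peaks, at 97 to 131 bp, are short beside the TT16 peak of 2462 bp.

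The missing knockdown peaks were then set against the depth of the lists. Summits of both lists that lay no more than 30 bp apart formed 874 pairs, and their background in the knockdown was 0.471 times that in the wild type (median), so a weak peak can drop out at equal occupancy. Each wild-type peak was scaled by this ratio and counted as still detectable when its −log10 p reached 12.4, the lowest in the knockdown list. By this rule 7 of the 13 bound genes kept a peak. These were TT16, with a scaled −log10 p of 80.2, AGL71, ANR1, AGL42, AGL72 and AGL14, with scaled values of 32.0 down to 17.7, and the type I gene AGL83, at the edge of the rule with 12.5. None of these 7 had a knockdown peak. This is common to bound genes: of all 742 protein-coding genes with such a peak (2.70% of all), 90.0% had no knockdown peak, and of all 2725 bound genes 92.4% had none. Among the 15 floral and flowering MADS-box genes with such a peak, 12 had no knockdown peak. For AGL12, AGL21, AGL15, AGL49, AGL82 and AGL99 the scaled −log10 p was at most 8.20, so at the depth of the knockdown list a loss could not have been seen.

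**Figure D4:**
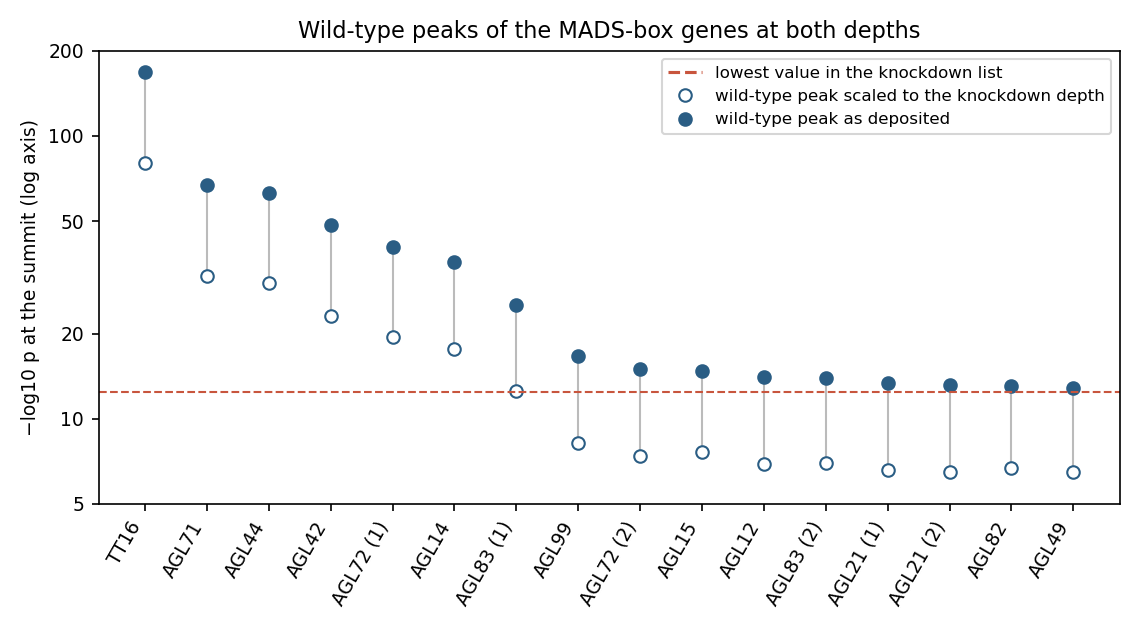
The −log10 p at the summit (log axis) of the 16 wild-type peaks on the 75 genes, as scaled to the knockdown depth (open circles) and as deposited (filled circles), with genes that have 2 peaks numbered by strength. The dashed line is the lowest value in the knockdown list, 12.4, and 7 peaks, from TT16 to the stronger peak of AGL83, stay above it after scaling.

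The type I genes bound in the wild type were AGL49, AGL82, AGL83 and AGL99. AGL83, a Mα gene, had no knockdown peak and 2 wild-type peaks, of 598 bp with a fold of 4.26 (chromosome 5, 20075551 to 20076148) and of 113 bp with a fold of 3.19 (chromosome 5, 20075344 to 20075456). Together they covered 711 bp of its 858 bp. The Mβ gene AGL82 had a wild-type peak of 557 bp over 55.9% of the gene, with a fold of 3.00 (chromosome 5, 23781222 to 23781778). The Mβ gene AGL49 and the Mα gene AGL99 had wild-type peaks of 227 bp with a fold of 3.08 (chromosome 1, 22119716 to 22119942) and of 89 bp with a fold of 3.39 (chromosome 5, 1333376 to 1333464). Apart from that of AGL83, these folds stood on both sides of the list's median of 3.29.

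The type I genes bound in the knockdown were PHE2 (AGL38), AGL34 and AGL90 of the Mγ class and AGL78 of the Mβ class, and none of them had a wild-type peak. AGL34 had a knockdown peak of 97 bp with a fold of 4.92 (chromosome 5, 9393310 to 9393406). PHE2, the close paralog of PHE1, had a knockdown peak of 117 bp with a fold of 4.52 (chromosome 1, 24255633 to 24255749). AGL78 had one of 97 bp with a fold of 4.18 (chromosome 5, 26110460 to 26110556), and AGL90 one of 131 bp with a fold of 4.02 (chromosome 5, 9992531 to 9992661). The median fold of the whole knockdown list was 4.35, so these 4 peaks lay on both sides of it. Scaled up to the wild-type depth under the same model, their −log10 p was 24.6 to 36.5, against a lowest value of 12.1 in the wild-type list. All 4882 knockdown peaks passed that scaling, and 82.9% of the 1206 genes bound in the knockdown had no wild-type peak. PHE2 has a near copy in PHE1, and AGL34 and AGL90 are near copies of each other and of AGL36. The sources used here do not say how reads that match more than 1 copy were placed, so a peak on any of them is uncertain as to its copy.

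Several type I genes of known function had no FIE peak in either list, as was the case for 42 of the 50 type I genes and for 86.4% of all protein-coding genes. Among them were PHE1, the maternally expressed AGL36, AGL62, which holds back cellularisation of the endosperm, AGL61 and AGL80, which act together in the central cell, and AGL23, which acts in the female gametophyte. The nearest wild-type peak was 305 bp from AGL36, 3431 bp from AGL23, 6493 bp from AGL61, 6519 bp from PHE1, 14899 bp from AGL62 and 47046 bp from AGL80. The lists hold only peaks with a −log10 q above 10, so FIE below that level at these genes was not measured.

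The Mδ genes, AGL30, AGL33, AGL65, AGL66, AGL67, AGL94 and AGL104, had no peak on the gene body, but 2 of them had a wild-type peak close by. A peak with a fold of 3.65 lay 333 bp from AGL30, and one with a fold of 2.90 lay 213 bp from AGL94. With 1 kb added on each side of the gene body, 0 of 23 type II genes were bound in the knockdown and 11 in the wild type, against backgrounds of 7.11% and 15.7% of all protein-coding genes. On the same measure 4 of 50 type I genes were bound in the knockdown and 8 in the wild type. The 14 type II genes with no wild-type peak lay a median of 8765.5 bp from the nearest one, and the 46 such type I genes a median of 9686 bp, against 10347 bp for all protein-coding genes with no wild-type peak.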

How the data were processed

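FIE ChIP-seq libraries came from the ThruPLEX kit, per the labels' protocols. MACS2 2.1.0.20151222, Bowtie2, bedtools and the build TAIR10 appear in the submitters' processing notes. The use of replicates and input in each list was not given in the sources used here. The authors deposited 1 narrowPeak list per anti-FIE group, with intervals, a deposited score (the whole-number part of 10 times the −log10 q in 100% of rows), the deposited fold enrichment ratio, and the deposited −log10 p-value and −log10 q-value. The list named dTF was taken as the double knockdown, the remaining anti-FIE group. Total counts per library were not used here, so depth is known only as a ratio between the lists.

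Peaks were read with Python 3.11.15 and pandas 2.3.3. Pileup and background at each summit were recovered from fold and −log10 p under a Poisson model with a pseudocount of 1, with a largest misfit of 7.27e-04, and the step was tested on simulated data. Scaled pileups were cut down to whole reads. This takes the background to follow depth. Gene bodies and names came from a RefSeq table of TAIR10.1, used to place and name genes, whose chromosome sequences were taken to be those of TAIR10; coordinates in the text come from the peak lists. Every gene with a peak in either list is named, as are some of the genes without one. The types and classes were assigned from hand-written lists, and the clades and length classes were added later. All were chosen with earlier results of these data known. No p-value was computed, since each group has 1 list. Sequences and motifs were not used here.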

Additional observations from a re-analysis of the deposited data

How the results depend on the processing

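Of 33 recomputed counts, 24 stayed within 1.5 times the reported count. These counts overlap: the 75 genes include both types, and no gene was bound in both lists. The type II count of 9 in the wild type did so under every alternative run, at 6 to 11. The type II count in the knockdown stayed at 0, but only the setting with 1 kb added on each side could have raised it. The wild-type count of type I genes did not: it was 4 as reported, 8 with 1 kb added on each side, 1 with the upper 50% of the list by −log10 q and 1 with wild-type peaks detectable at the depth of the knockdown. The background moved with these 3 settings. Type I shares were 16%, 2% and 2%, against 15.7%, 5.23% and 2.70% of all protein-coding genes. For all 75 genes the wild-type count of 13 became 7 under each of the last 2 settings. That is 9.33% of the 75 genes, against the 5.23% and 2.70% of all protein-coding genes. The reported count was 17.3% against 9.93%. The counts of wild-type-bound genes without a knockdown peak changed in the same way under these 2 settings, to 1 of type I and 7 in all. The difference between type II and type I in the wild type kept its direction under all 4 alternatives.

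No paired analysis was possible because the replicates of each group were given as 1 peak list. For the same reason no replicate could be left out. The alternatives that needed protein sequences were not run. Weak peaks limit the comparison: 6 of the 13 wild-type-bound genes could not be tested for a loss at the knockdown depth.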

Other observations

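Some type I genes lie close to each other: 13 of the 50 had another type I gene among the 75 as their neighbour in the family within 20 kb. Of these 13 genes, 1 was bound in the knockdown and 0 in the wild type, where the background shares would give 0.57 and 1.29, so both counts lay near the background. AGL101, AGL53, AGL54 and AGL39 on chromosome 5 lie with gaps of 3135 to 13849 bp between neighbours, and none of them had a peak in either list. AGL58 and AGL59, 1648 bp apart on chromosome 1, had none either, nor did the Mδ neighbours AGL67 and AGL66, 3646 bp apart. Between AGL86 and AGL92, 3144 bp apart on chromosome 1, there was 1 wild-type peak with a fold of 3.02, which lay 751 bp from AGL92. Between PHE2 and PHE1, 10399 bp apart on chromosome 1, there was likewise 1 wild-type peak, with a fold of 3.08, at 3689 bp from PHE2 and 6519 bp from PHE1. Chromosome 5 held 23 of the 50 type I genes, of which 3 were bound in the knockdown and 3 in the wild type. It also held 5 of the 23 type II genes, of which 0 were bound in the knockdown and 5 in the wild type. Over all chromosomes, 4.40% of protein-coding genes were bound in the knockdown and 9.93% in the wild type. Whether chromosome 5 differs from the others was not tested.

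Of the genes bound in the knockdown alone, AGL90 ended 7231 bp from the gene-poor region of chromosome 5, and AGL34 lay 605899 bp from it. AGL78 lay 12110326 bp from that region, and PHE2 lay 7454929 bp from the one of chromosome 1. The type I genes AGL89, AGL39, AGL54, AGL53, AGL101 and AGL93 lay 262679 to 515859 bp from the chromosome 5 region, nearer than AGL34, and had no peak in either list. Gene-poor regions were the longest runs of 100 kb bins with under 0.5 times the median number of protein-coding genes, smoothed over 5 bins. Of the 75 genes, 1 lay inside such a region, AGL79, which had no peak in either list.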
